A study of Mus musculus with 4 samples.

Results

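CD4 conventional T cells of MC38 tumours were compared between mice given Atractylenolide I (ATT-I) with anti-PD-1, called the combination, and mice given ATT-I alone. A cell was taken where its deposited value was above 0 for Cd4, higher for Cd4 than for Cd8a and for Cd8b1, and 0 for Foxp3. This gave 90 of 297 cells in the ATT-I library (30.3%, exact Clopper-Pearson 95% interval 25.1 to 35.9%) and 39 of 199 (19.6%, 14.3 to 25.8%) in the combination library, 129 of the 496 cells of both and of 13213 in the series. Vehicle held 55 such cells of 155, and anti-PD-1 alone 981 of 12562. The cells were selected on the values of Cd4, Cd8a, Cd8b1 and Foxp3, which are therefore no result.

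Tumours were grown in C57BL/6 mice from orthotopic MC38, a mouse colon carcinoma line. ATT-I, a plant sesquiterpene lactone, was dosed at 50 mg/kg each day. Anti-PD-1, an antibody to an inhibitory receptor of T cells, was dosed 3 times a week, 5 times in total, alone or with ATT-I. The vehicle arm is called untreated in its own sample entry. Each arm was 1 droplet library of 5 pooled tumours, harvested 2 weeks after treatment began. Animals can therefore not be told apart, no test between arms is possible, and each difference below lies between 2 libraries. Intervals cover counting error only. The ATT-I and combination libraries shared no cell barcode.

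CD4 conventional cells are helper T cells, which recognise peptides on MHC class II molecules. Antigen recognition induces early response genes, among them NR4A receptors and NF-κB targets, and then cytokines and TNF family ligands that act on other immune cells. PD-1 dampens the antigen receptor signal. FOXP3 marks the regulatory lineage, which shares Il2ra and several other genes with activated helper cells.

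The cells carried the defining T cell marker: Cd3e, a chain of the receptor complex, had a UMI (a counted RNA molecule) in 85 of 90 ATT-I and 39 of 39 combination cells. At the edge of the rule, 27 of 90 ATT-I and 2 of 39 combination cells entered on 1 Cd4 UMI, and 4 of 18 and 3 of 26 Foxp3-positive cells were left out on 1 Foxp3 UMI. The rule was not equal between the libraries there. In 37 of 199 combination cells and 0 of 297 ATT-I cells values of 1 UMI read as 0, so such cells could not enter or be left out on 1 UMI. Those Foxp3-positive cells made up 16.7% of ATT-I and 40.0% of combination cells that met the Cd4 part of the rule. Thinned to 4000 UMIs each, an expected 65.8% and 59.7% of them would still show Foxp3, so the absence of a Foxp3 UMI does not show that a cell lacks the gene's RNA.

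1 ATT-I member went against its label. It held 373 UMIs of the epithelial markers Epcam, Krt8, Krt18, Krt19 and Cldn7 among 57131, the most UMIs of any member, with 1 Cd4 UMI, 9 Mki67 UMIs and 21 UMIs of Cd3e, Cd3d, Cd3g and Cd2 together. The next highest member had 2 epithelial UMIs and the combination members 0. Leaving it out moved 2 of 4279 compared genes by 1.5-fold or more in all members: Atf3, a stress-induced factor named here for that reason alone, went from a log2 ratio of 2.82 to 3.89, and Car2 is described below.

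RNA of other cell types also differed between the libraries. The 4 haemoglobin genes summed to 22.2 UMIs per 10000 in ATT-I members, with a UMI in 90 of 90 cells, and to 0.0230 in combination members, with Hbb-bt and Hba-a1 at 0. In all other cells they summed to 34.0 and 0.0325. Fibroblast markers summed to 0.625 and 0.0115 in members (27 of 90 and 1 of 39 cells, with Col1a1, Col1a2, Dcn and Lum at 0 in the combination), and endothelial markers to 0.425 and 0.375. The summed level of NK markers was 0.209 and 0.435, with Ncr1 and Klrb1c at 0 in both, and that of dendritic markers 0.175 and 0.477, with Flt3 and Clec9a at 0 in both. Gamma-delta (0.105 and 0.135, Trdc at 0), B cell (0.0278 and 0.0115, Cd79a at 0) and monocyte or macrophage markers (0.0385 and 0.235, Cd68 at 0) were low, and 5 of 90 and 8 of 39 cells had a Cd8a or Cd8b1 UMI. The part of other cells' RNA in the results was not tested.

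Depth differed too. ATT-I members held a median of 5567 UMIs (1864 to 57131) and combination members 12613 (3906 to 40863), and 15 of 90 against 25 of 39 had at least 10000. Mki67, the proliferation marker by which the cells were split, had a UMI in 17 of 90 (18.9%, 11.4 to 28.5%) ATT-I cells and 18 of 39 (46.2%, 30.1 to 62.8%) combination cells, beside 47.3% in vehicle and 26.4% under anti-PD-1 alone. With cells thinned to 4000 UMIs the expected shares were 15.5% (16 shallower cells left out) and 30.7% (1 left out). Under 10000 UMIs the share was 5 of 75 (6.67%, 2.20 to 14.9%) in ATT-I and 2 of 14 (14.3%, 1.78 to 42.8%) in the combination. Above that depth it was 12 of 15 (80.0%, 51.9 to 95.7%) and 16 of 25 (64.0%, 42.5 to 82.0%). Within each depth class the intervals overlapped, and in the deeper class the ATT-I share was the higher one. The class under 10000 UMIs was not matched in depth, with medians of 4964 UMIs in ATT-I and 8038.5 in the combination. In the deeper class they were 17929 and 17530.

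**Figure D1:**
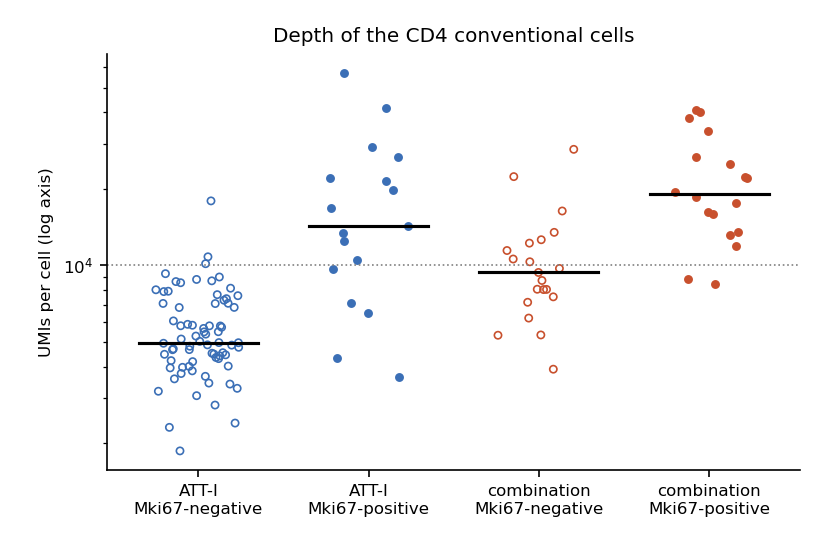
UMIs per cell (log axis) of CD4 conventional cells, 1 point per cell, by library and by the presence of an Mki67 UMI; bars are medians and the dotted line marks 10000 UMIs. Median depth was 4970 and 14277 UMIs in Mki67-negative and Mki67-positive ATT-I cells, and 9378 and 19042 in those of the combination.

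Levels are UMIs of a gene per 10000 UMIs of its cell, averaged over the members, and genes whose 2 levels averaged at least 0.3 were compared. Of 4279 genes, 1266 (29.6%) were at least 1.5-fold higher in the combination and 307 (7.17%) at least 1.5-fold lower, and the median gene was higher by 0.25 on the log2 scale. Relative to that gene, 743 (17.4%) were higher and 644 (15.1%) lower. The split was 782 higher and 722 lower when the deposited values were read without a library constant, and 877 and 538 with ribosomal protein, mitochondrial and histone genes left out of the cell totals. Ribosomal protein genes took 29.6% of UMIs in ATT-I members and 20.4% in combination members, and mitochondrially encoded genes 3.80% and 3.92%. In all other cells of the libraries 26% of genes were higher and 7.81% lower. A gene is called higher in all 4 subsets below where it was 1.5-fold higher in all members, in Mki67-negative (73 and 21) and Mki67-positive cells (17 and 18), and in cells under (75 and 14) and of at least 10000 UMIs (15 and 25). That held for 483 of 4267 genes (11.3%), and 59 (1.38%) were lower in the same way. Taken singly, the 4 subsets had 33.3, 30.3, 34.7 and 36.2% of genes higher and 11.9, 13.0, 16.9 and 12.5% lower, in that order. They are overlapping splits of the same cells. Of the 75 ATT-I cells under 10000 UMIs, 70 were Mki67-negative, and of the 15 deeper ones 12 were Mki67-positive. Below, a pair of levels gives ATT-I first, and the parentheses after it hold the log2 ratio of the combination over ATT-I with its 95% counting interval. A single value after the counts of a list is the median log2 ratio of its measured genes. Counts of a list in all members are to be read beside the 29.6% and 7.17% of all genes. The median of all genes was 0.29, 0.16, 0.27 and 0.25 in the 4 subsets and 0.25 in all other cells.

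**Figure D2:**
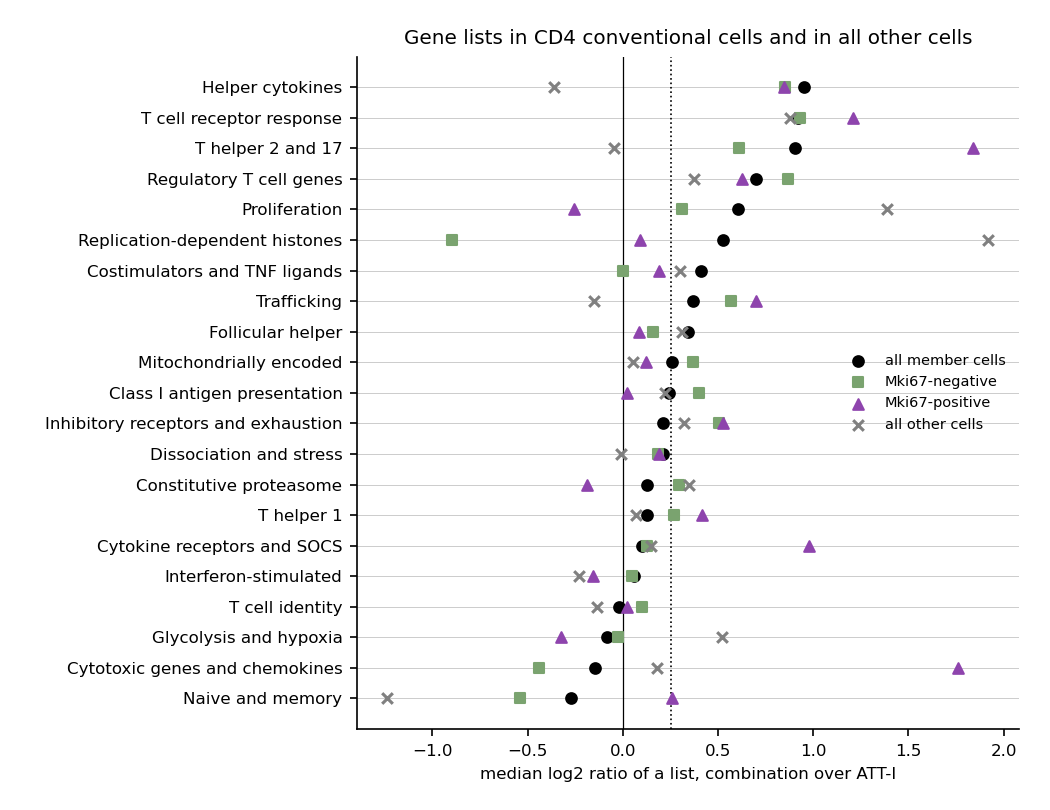
Median log2 ratio, combination over ATT-I, of the measured genes of 21 lists (rows) in all members, in Mki67-negative and Mki67-positive members and in all other cells; the dotted line is the median of all genes in members, 0.25. In all members helper cytokines (0.95) and the T cell receptor response (0.92) were highest and naive and memory genes (-0.27) lowest.

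Early response genes of the antigen receptor were mostly higher in the combination. Of 14 measured of 20 listed, 9 were at least 1.5-fold higher and 0 lower, with a median of 0.92, and 7 (Nr4a2, Nr4a3, Nfkbia, Tnfaip3, Rel, Dusp5 and Bhlhe40) were higher in all 4 subsets. The median was 0.93 in Mki67-negative, 1.21 in Mki67-positive and 0.88 in all other cells. It varied with depth, at 0.54 with 7 higher and 2 lower in cells under 10000 UMIs, where 34.7% of all genes were higher and 16.9% lower, and at 1.57 with 12 and 0 in deeper cells, where 36.2% and 12.5% were. Relative to the median gene of the shallower cells, 5 were higher and 3 lower there (0.27). Of 16 T cell identity genes, which include chains of the receptor complex and other surface receptors, 0 were at least 1.5-fold higher and 0 lower, with a median of -0.02. Relative to the median gene of all members, 0 of these were higher and 2 lower (-0.27). Nr4a2, an orphan nuclear receptor induced by receptor signalling, had a level of 0.484 in ATT-I (33 UMIs in 17 of 90 cells) and 2.82 in the combination (137 UMIs in 27 of 39 cells), beside 0.677 in vehicle and 0.581 under anti-PD-1 alone. The combination stood above the other 3 libraries, 5.83-fold over ATT-I (2.54, 1.92 to 3.22). The ratio was 2.97 in Mki67-negative and 1.59 in Mki67-positive cells, and 2.15 without the highest combination cell. Its relatives Nr4a3 and Nr4a1 were at 0.426 and 1.08 (1.34, 0.55 to 2.19) and 0.752 and 1.33 (0.82, 0.23 to 1.44), Nr4a1 with 1.41 in Mki67-negative and -0.45 in Mki67-positive cells.

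The list holds 4 genes of the NF-κB pathway that were measured, and 3 of them were higher in all 4 subsets. Rel, the c-Rel subunit, was at 1.16 and 3.24 (1.49, 1.05 to 1.94), with UMIs in 35 of 90 and 32 of 39 cells, beside 1.71 in vehicle and 1.03 under anti-PD-1. Of the inhibitors of the pathway, Tnfaip3 (A20) was at 2.57 and 6.26 (1.28, 0.95 to 1.62) and Nfkbia (IκBα) at 8.22 and 15.3 (0.89, 0.71 to 1.07), while Nfkbid (IκBNS) was within 1.5-fold, at 0.502 and 0.522 (0.06, -0.77 to 0.90). Vehicle held 2.87 of Tnfaip3 and 7.94 of Nfkbia and anti-PD-1 1.81 and 8.50, so that for Rel, Tnfaip3 and Nfkbia the combination was the highest library. In all other cells the ratios of Rel, Tnfaip3 and Nfkbia were 1.59, 0.68 and 0.72.

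The windows upstream of Rel, Nfkbia and Tnfaip3 and of Il2ra, a receptor gene described below, hold the NF-κB consensus motif and are shown because the 4 genes were higher together. They were chosen after their values and matches were seen. Each is the 250 bases before the RefSeq start site (build GRCm38.p6), 5′ to 3′ on the gene's strand, with matches on either strand in capitals.
Rel: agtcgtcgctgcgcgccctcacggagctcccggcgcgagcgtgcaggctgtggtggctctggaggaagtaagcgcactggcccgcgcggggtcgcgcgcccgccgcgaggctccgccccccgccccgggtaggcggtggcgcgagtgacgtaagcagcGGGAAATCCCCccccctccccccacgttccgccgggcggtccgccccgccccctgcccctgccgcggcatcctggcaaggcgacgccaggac
Nfkbia: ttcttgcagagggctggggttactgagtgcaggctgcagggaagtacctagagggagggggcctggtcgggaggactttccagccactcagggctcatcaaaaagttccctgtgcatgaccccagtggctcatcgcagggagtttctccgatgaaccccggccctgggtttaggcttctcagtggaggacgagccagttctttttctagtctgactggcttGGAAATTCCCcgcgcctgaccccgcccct
Tnfaip3: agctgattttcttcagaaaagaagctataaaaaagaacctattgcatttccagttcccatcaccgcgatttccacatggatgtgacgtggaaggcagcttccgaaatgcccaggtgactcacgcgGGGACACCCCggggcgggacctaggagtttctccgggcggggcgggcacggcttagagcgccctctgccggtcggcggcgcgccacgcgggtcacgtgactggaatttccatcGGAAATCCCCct
Il2ra: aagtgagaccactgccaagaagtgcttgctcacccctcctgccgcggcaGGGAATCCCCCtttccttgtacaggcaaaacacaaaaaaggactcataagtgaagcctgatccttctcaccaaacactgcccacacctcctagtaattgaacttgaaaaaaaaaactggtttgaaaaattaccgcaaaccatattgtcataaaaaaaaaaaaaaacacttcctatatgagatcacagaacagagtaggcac
They lie at chr11:23770970-23771219 (minus strand), chr12:55492648-55492897 (minus), chr10:19015411-19015660 (minus) and chr2:11642542-11642791 (plus). Rel has overlapping matches 92 and 91 bases before the start, Nfkbia 1 match at 29, Tnfaip3 matches at 125 and 12, and Il2ra overlapping matches at 201 and 200. Of 27025 genes with such windows, 8.23% hold a match, against 5 of 15 of the receptor response list (33.3%: Egr2, Nfkbia, Nfkbid, Rel and Tnfaip3). Nfkbia, Nfkbid, Rel and Tnfaip3 are the genes of the NF-κB pathway in that list, so its share is no independent result. In the regulatory list, which holds Il2ra, 1 of 10 genes had a match (10.0%). It was also held by 7 of 17 dissociation and stress genes and 5 of 16 class I genes, lists with medians of 0.21 and 0.24 in expression. Among helper cytokines 3 of 17 did (Lif, Ltb and Tgfb1). A match describes the letters only.

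Other early genes differed in size or direction. Bhlhe40, a transcription factor of cytokine-producing helper cells, was at 4.94 and 10.2 (1.04, 0.81 to 1.28), and Dusp5, a phosphatase of ERK, at 1.31 and 2.53 (0.95, 0.50 to 1.41). Irf8 was at 0.209 and 0.981 (2.23, 1.39 to 3.17), with 0.31 in cells under 10000 UMIs and 2.51 in deeper ones. The activation marker Cd69 (3.6 and 4.44, log2 0.30, -0.01 to 0.62) and Batf (1.11 and 1.14, log2 0.04, -0.56 to 0.62) were within 1.5-fold. Egr1, an early response factor, had the lower level in the combination but lay within 1.5-fold, at 2.82 and 1.89 (-0.57, -1.01 to -0.15), as did Fos, kept among the dissociation genes, at 5.52 and 3.83 (-0.53, -0.84 to -0.22).

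**Figure D3:**
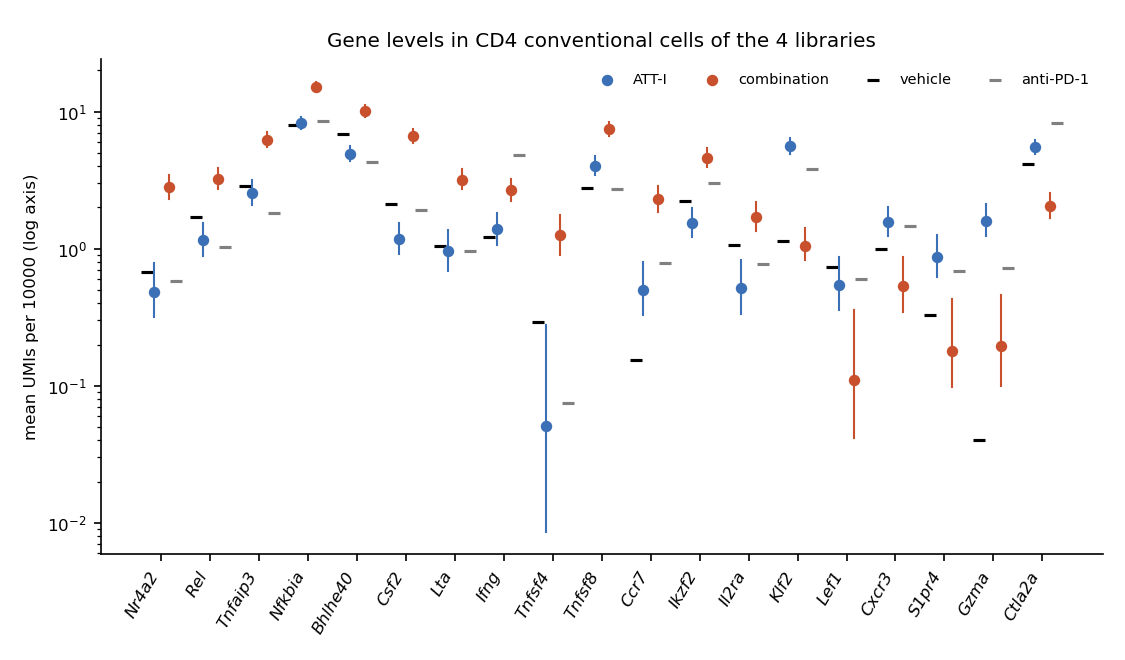
Mean UMIs per 10000 (log axis) of 19 genes in CD4 conventional cells, with 95% counting intervals for ATT-I (90 cells) and the combination (39 cells); dashes are vehicle (55 cells, black) and anti-PD-1 alone (981 cells, grey). From Nr4a2 to Il2ra the combination lies above ATT-I, and from Klf2 to Ctla2a below it.

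Helper cytokines were the list with the highest median. Of 7 measured of 20 listed, 5 were at least 1.5-fold higher and 0 lower (0.95), while in all other cells the median was -0.36; the difference between the 2 cell groups was not tested. Csf2, which encodes GM-CSF, was at 1.17 and 6.64 (100 and 334 UMIs), 5.67-fold (2.50, 2.12 to 2.90), beside 2.13 in vehicle and 1.92 under anti-PD-1. UMIs were found in 14 of 90 and 14 of 39 cells. 1 combination cell gave 44.4% of the level, and the ratio was 1.69 without it. Lta, lymphotoxin alpha, was at 0.963 and 3.19 (1.73, 1.21 to 2.27) in 24 of 90 and 15 of 39 cells, and 1.13 without its highest cell, which gave 35.6% of the combination level. In all other cells Csf2 and Lta were at -0.36 and -0.51.

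Ifng was at 1.39 and 2.69 (0.95, 0.50 to 1.41), and at 4.81 under anti-PD-1 alone, the highest of the 4 libraries, and its ratio was 0.64 without the highest combination cell. Penk, an enkephalin precursor, was at 3.84 and 10.4 (1.44, 1.21 to 1.67), under its vehicle level of 15.2, and at 0.73 without the highest combination cell. Csf2, Lta, Ifng and Penk, which the cytokine list holds as an enkephalin gene, were higher in all 4 subsets. Tgfb1 was at 2.0 and 3.32 (0.73, 0.35 to 1.10), or 0.47 relative to the median gene, which is within 1.5-fold. Tnf (1.03 and 0.800, log2 -0.36, -1.01 to 0.29) and Ltb (9.17 and 8.95, log2 -0.04, -0.25 to 0.18) were within that fold, Tnf with -1.45 in shallower and 2.28 in deeper cells. Il4, Il5, Il13, Il17a and Il22, which define other helper lineages, are not analysed here.

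TNF family ligands of helper cells, which act on dendritic and B cells, included the gene with the largest ratio of any list. Of 12 measured costimulators and ligands 5 were at least 1.5-fold higher and 0 lower (0.41), beside 29.6% and 7.17% of all genes (0.25). The list's medians were 0.00 in Mki67-negative and 0.19 in Mki67-positive cells, where those of all genes were 0.29 and 0.16. Tnfsf4 (OX40 ligand) had 5 UMIs in 3 of 90 ATT-I cells and 55 UMIs in 13 of 39 combination cells, or levels of 0.0511 and 1.26 (4.62, 2.85 to 7.25). Thinned to 4000 UMIs, an expected 1.08% and 19.1% of cells would show it. Vehicle was at 0.291 and anti-PD-1 at 0.0746, and the ratio was 4.70 in Mki67-negative, 4.72 in Mki67-positive and 1.92 in all other cells. Tnfsf8 (CD30 ligand) was at 4.04 and 7.47 (0.89, 0.62 to 1.16), 0.50 without its highest cell, and -1.39 in all other cells. Tnfsf11 (RANK ligand) was at 1.49 and 3.44 (1.21, 0.81 to 1.62). Icos, a costimulatory receptor, was at 2.0 and 3.02 (0.59, 0.20 to 0.99), with -0.02 in Mki67-positive cells. Cd40lg (0.556 and 0.829, log2 0.58, -0.18 to 1.34), Tnfrsf4 (7.43 and 7.81, log2 0.07, -0.15 to 0.29), Tnfrsf9 (1.59 and 1.89, log2 0.25, -0.21 to 0.72) and Cd28 (3.28 and 2.63, log2 -0.32, -0.69 to 0.05) were within 1.5-fold.

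Genes of resting and recirculating cells went both ways. Of 12 measured, 3 were at least 1.5-fold higher and 5 lower; the median was -0.27, with -0.54 in Mki67-negative, 0.26 in Mki67-positive and -1.24 in all other cells. Klf2, a factor that sustains exit receptors, was at 5.64 and 1.05, 5.35-fold lower (-2.42, -2.83 to -2.03), with UMIs in 52 of 90 and 12 of 39 cells. Vehicle, at 1.14, lay close to the combination, and anti-PD-1 alone, at 3.83, between them. In Mki67-negative cells the levels were 5.97 and 0.253, and in Mki67-positive cells 4.25 and 1.99. Lef1, a factor of naive cells, was at 0.545 and 0.11 (-2.31, -3.83 to -1.03) and S1pr4, a sphingosine phosphate receptor, at 0.874 and 0.180 (-2.28, -3.28 to -1.36), both on few combination UMIs (7 and 16). Klf2, Lef1 and S1pr4 were lower in all 4 subsets, and were at -2.23, -2.63 and -1.43 in all other cells.

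S1pr1, the exit receptor controlled by KLF2, was at 0.730 and 0.172 (-2.08, -3.11 to -1.10), but at -4.46 in Mki67-negative and 0.31 in Mki67-positive cells. The survival gene Bcl2 was at 2.96 and 1.12 (-1.40, -1.95 to -0.88). Ccr7, the lymph node homing receptor, went the other way, at 0.501 and 2.31 (2.20, 1.57 to 2.88) in 12 of 90 and 18 of 39 cells, beside 0.153 in vehicle and 0.787 under anti-PD-1. It was higher in all 4 subsets, at 1.81 without its highest cell and -0.11 in all other cells. Tcf7 (1.02 and 0.981, log2 -0.05, -0.73 to 0.62) and Il7r (2.55 and 2.12, log2 -0.27, -0.75 to 0.21), both of memory cells, were within 1.5-fold.

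Genes of the helper lineages were split. Of 10 measured type 1 genes 2 were at least 1.5-fold higher and 2 lower (0.13), and of 6 type 2 and 17 genes 4 were at least 1.5-fold higher and 1 lower (0.90). Cxcr3, a chemokine receptor of type 1 cells, was at 1.57 and 0.531 (-1.57, -2.28 to -0.90) and lower in all 4 subsets, whereas Tbx21, the factor of that lineage, was at 0.299 and 0.323 (0.11, -1.02 to 1.27). Runx3 was at 0.773 and 2.26 (1.55, 0.98 to 2.15) and higher in all 4 subsets. Rora, a factor of type 17 cells, was at 2.33 and 8.90 (1.93, 1.61 to 2.26) in 48 of 90 and 32 of 39 cells, and Stat3, a signal transducer of interleukin 6 family cytokines, at 1.36 and 4.68 (1.79, 1.39 to 2.20). Both were higher in all 4 subsets, and at 1.55 and 2.17 in all other cells. Maf was at 2.95 and 5.02 (0.77, 0.46 to 1.08), under its vehicle level of 7.34, and Gata3, the type 2 factor, at 1.58 and 1.19 (-0.41, -0.97 to 0.13). Ahr, the 1 lower gene of the type 2 and 17 list, was at 0.460 and 0.282 (-0.71, -1.85 to 0.38), with an interval that included 0. Of 4 measured follicular helper genes 2 were at least 1.5-fold higher and 0 lower (0.34), but 0 higher and 1 lower relative to the median gene, and 1 higher without the cell with epithelial markers.

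**Figure D4:**
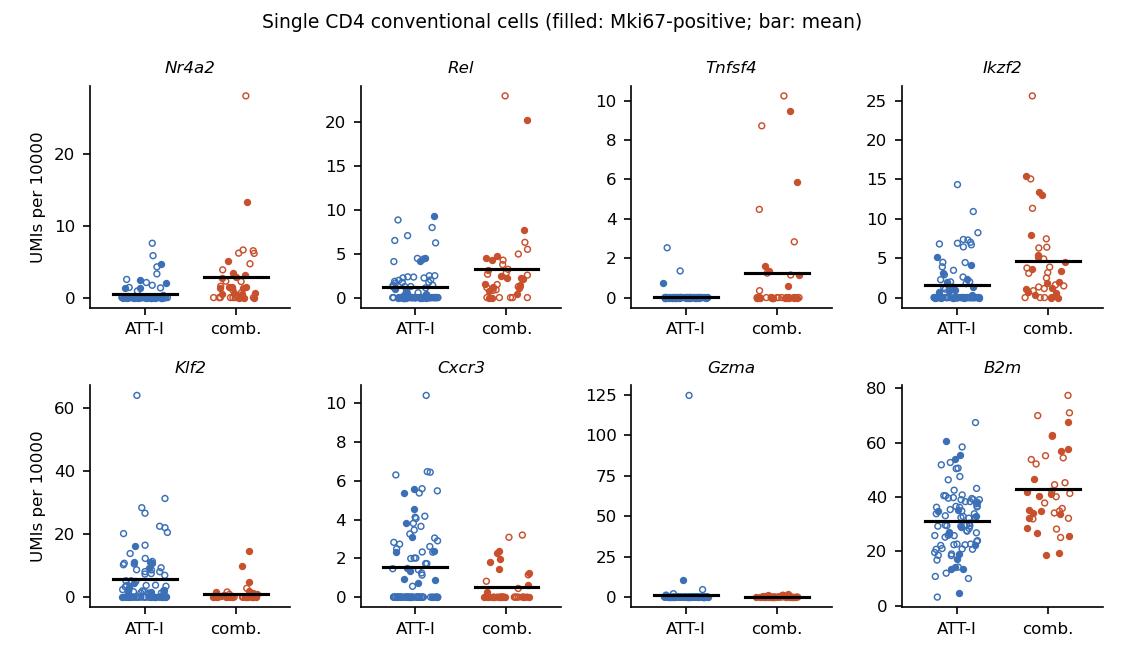
UMIs per 10000 of 8 genes in single CD4 conventional cells of ATT-I and the combination (comb.), filled where the cell has an Mki67 UMI; bars are means. A larger share of combination cells carries Nr4a2, Rel, Tnfsf4 and Ikzf2 and a smaller share Klf2, and 1 ATT-I cell near 125 sets the Gzma mean.

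Several genes of regulatory cells were higher although cells with a Foxp3 UMI had been left out. Of 10 measured, 5 were at least 1.5-fold higher and 0 lower, with a median of 0.70 and of 0.37 in all other cells. Ikzf2 (Helios) was at 1.54 and 4.61 (1.58, 1.19 to 1.99) in 34 of 90 and 33 of 39 cells, beside 2.24 in vehicle and 3.04 under anti-PD-1. Il2ra, the high-affinity interleukin 2 receptor chain, was at 0.515 and 1.72 (1.74, 1.08 to 2.44), the chemokine receptor Ccr8 at 0.311 and 0.782 (1.33, 0.36 to 2.34) and Ikzf4 (Eos) at 0.182 and 0.627 (1.78, 0.66 to 3.00). All 4 genes were higher in all 4 subsets. A UMI of Ikzf2, Ccr8 or Il2ra was found in 52 of 90 (57.8%, 46.9 to 68.1%) ATT-I and 38 of 39 (97.4%, 86.5 to 99.9%) combination cells, or in an expected 48.7% and 81.3% at 4000 UMIs. Tnfrsf18 (GITR, 8.08 and 7.77, log2 -0.06, -0.28 to 0.16) and Izumo1r (0.631 and 0.508, log2 -0.31, -1.17 to 0.52) were within 1.5-fold. Whether Foxp3-expressing cells without a Foxp3 UMI were among the members was not tested.

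Of 11 measured inhibitory receptor and exhaustion genes 4 were at least 1.5-fold higher and 0 lower, with a median of 0.21. Pdcd1, which encodes the target of the antibody, was at 2.74 and 2.14 (-0.36, -0.76 to 0.04), within 1.5-fold. Ctla4 was at 2.44 and 5.08 (1.06, 0.73 to 1.38) in 46 of 90 and 35 of 39 cells. Lag3 was at 0.763 and 1.49 (0.97, 0.32 to 1.64) and 2.26 under anti-PD-1 alone, and Rgs16, a regulator of G protein signalling, at 1.77 and 3.75 (1.08, 0.69 to 1.48); both were higher in all 4 subsets. The interval of Havcr2 (TIM-3) included 0, at 0.296 and 0.515 (0.80, -0.20 to 1.85), and Tox, a factor of exhaustion, was at 1.88 and 2.17 (0.21, -0.23 to 0.66).

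Cytotoxic genes and chemokines had no common direction, and single cells set several values. Of 13 measured, 4 were at least 1.5-fold higher and 4 lower (-0.14), with -0.44 in Mki67-negative and 1.76 in Mki67-positive cells. Gzma, granzyme A, was at 1.6 and 0.194 (-3.05, -4.09 to -2.13) and lower in all 4 subsets. However, 1 ATT-I cell with 50 Gzma UMIs, 1 Cd4 UMI and 4008 UMIs in all gave 86.5% of the ATT-I level, and the ratio was -0.18 without it. The same cell gave 30.2% of Ccl5, at 17 and 6.03 (-1.49, -1.69 to -1.30), or -0.99 without it. Ccl4 was at 2.85 and 0.843 (-1.76, -2.24 to -1.30) and turned to 2.49 without 1 ATT-I cell of 166 Ccl4 UMIs. Gzmb, granzyme B, was at 0.931 and 2.29 (1.30, 0.90 to 1.72), with 214 of 267 combination UMIs in 1 cell and -0.11 without it. Ctla2a, a cathepsin inhibitor, was at 5.54 and 2.05 (-1.43, -1.77 to -1.10) and lower in all 4 subsets, and Klrd1 (CD94) at 1.80 and 3.51 (0.96, 0.54 to 1.39) and higher in all 4, but at 0.54 without its highest cell. Nkg7 (5.63 and 5.93, log2 0.08, -0.16 to 0.31) and Gzmc (5.81 and 4.72, log2 -0.30, -0.59 to -0.01) were within 1.5-fold in all members, and at 1.77 and 2.87 in Mki67-positive cells.

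Of 15 measured cytokine receptor and SOCS genes 3 were at least 1.5-fold higher and 2 lower (0.10), and of 15 trafficking genes 7 were at least 1.5-fold higher and 3 lower (0.37). Il21r, the receptor of a helper cytokine, was at 0.952 and 3.08 (1.70, 1.23 to 2.18) in 34 of 90 and 35 of 39 cells and higher in all 4 subsets. The integrin chain Itga4 was at 2.55 and 5.17 (1.02, 0.69 to 1.36), also higher in all 4, and Itgb2 at 2.07 and 4.58 (1.15, 0.80 to 1.5). Cxcr6, of tissue-resident cells, was at 3.45 and 4.46 (0.37, 0.05 to 0.69). Socs1, an inhibitor of cytokine signalling, was at 1.31 and 1.17 (-0.16, -0.77 to 0.44), with 2.60 in Mki67-positive cells.

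Proliferation genes differed in direction between all members and the Mki67-positive class. Of 17 measured, 10 were at least 1.5-fold higher and 0 lower in all members (0.61; 4 and 2 relative to the median gene), 1 higher and 7 lower in Mki67-positive cells (-0.25; of all genes there 30.3% and 13.0%), and 1 and 11 in cells of at least 10000 UMIs (-0.90; all genes 36.2% and 12.5%). Top2a, a topoisomerase of dividing cells, was at 1.08 and 2.52 (1.21, 0.87 to 1.57) in all members and 0.08 in Mki67-positive cells. Ube2c, a mitotic ubiquitin-conjugating enzyme, and Cdk1, a mitotic kinase, were at 0.942 and 0.721 (-0.39, -0.78 to 0.00) and 0.487 and 0.475 (-0.04, -0.58 to 0.50), and at -1.5 and -1.19 in Mki67-positive cells. Ccnd2, a D cyclin, was at 3.85 and 6.60 (0.78, 0.50 to 1.06) and higher in all 4 subsets. In all other cells the list's median was 1.39, with an Mki67 UMI in 32.4% of ATT-I and 81.9% of combination cells. Replication-dependent histones had a median of 0.53 in all members and -0.90 in Mki67-negative cells. Hist1h1d, a linker histone, was at 1.88 and 0.474 (-1.99, -2.57 to -1.43) and lower in all 4 subsets, and Hist1h2ap was at 3.74 and 5.38 (0.53, 0.33 to 0.72).

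**Figure D5:**
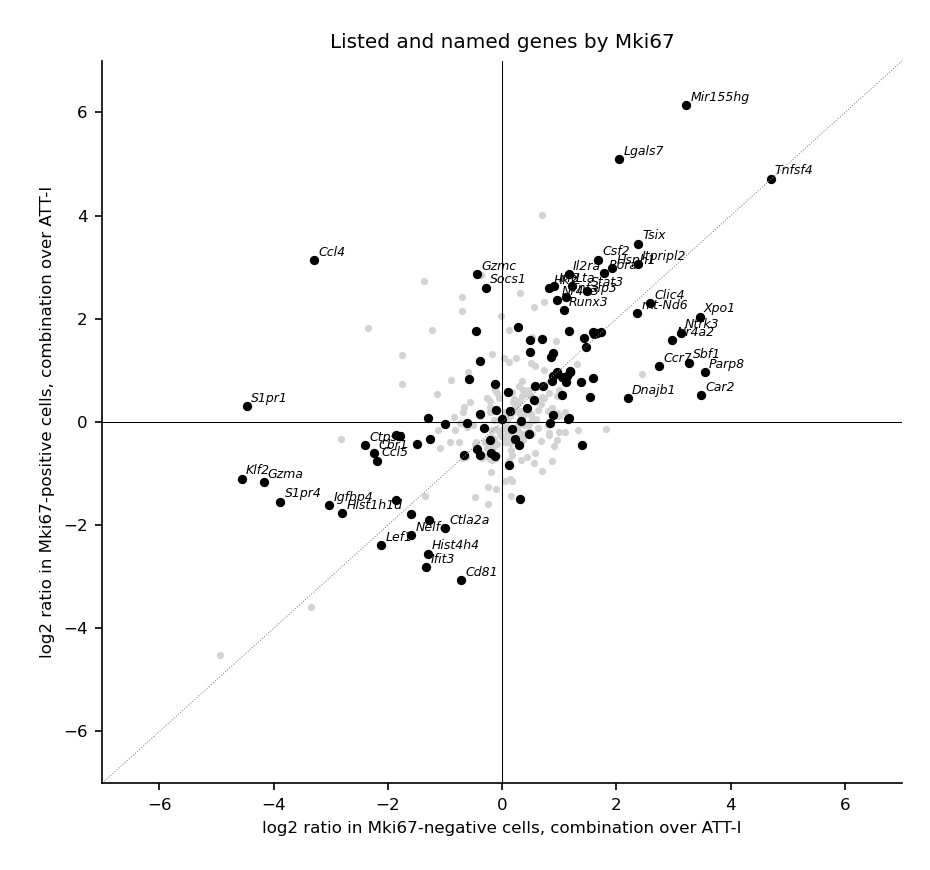
Log2 ratio, combination over ATT-I, of each measured listed gene (grey; black for most of those named in the text) and of the named genes outside the lists, in Mki67-negative cells (73 and 21) against Mki67-positive cells (17 and 18); a library without a UMI is at its floor of 3 UMIs and the dotted line marks equal ratios. Tnfsf4 (4.70 and 4.72) lies near that line, and Ccl4 and S1pr1 lie where the directions differ.

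Interferon-stimulated genes varied with depth. Of 23 measured, 4 were at least 1.5-fold higher and 3 lower in all members (0.06). In cells under 10000 UMIs 4 were higher and 9 lower (-0.34, beside 34.7% and 16.9% of all genes). In deeper cells, 15 of ATT-I and 25 of the combination, 20 were higher and 0 lower (1.48, beside 36.2% and 12.5%). Among the deeper cells with an Mki67 UMI, 15 genes were higher and 0 lower (0.85). The transcription factor Irf1 was at 0.549 and 1.6 (1.55, 0.89 to 2.25) and higher in all 4 subsets. Isg15, a ubiquitin-like protein, was at 2.29 and 1.87 (-0.29, -0.72 to 0.13), and Ifit3 at 1.42 and 0.403 (-1.82, -2.67 to -1.04), with 3.09 in deeper cells. Class I antigen presentation, which the series title raises for the tumour, had 3 of 18 genes higher and 0 lower in these T cells, with a median of 0.24 beside 0.25 for all genes. B2m, the class I light chain, was at 31.1 and 42.9 (0.46, 0.36 to 0.56), beside 45.4 in vehicle and 32.9 under anti-PD-1. H2-K1, a heavy chain, was at 34.4 and 37.6 (0.13, 0.02 to 0.23) and Psmb8, an immunoproteasome subunit, at 7.22 and 8.49 (0.23, 0.02 to 0.45). Of 31 constitutive proteasome genes 5 were at least 1.5-fold higher and 0 lower (0.13), where 29.6% of all genes were higher, and relative to the median gene 1 was higher and 5 lower (-0.13). Psmd4, a ubiquitin receptor of the proteasome, was at 1.85 and 1.6 (-0.21, -0.68 to 0.27).

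Of 16 measured genes of glycolysis and hypoxia 3 were at least 1.5-fold higher and 2 lower, with a median of -0.08 in members and 0.52 in all other cells. The enzymes went both ways. Gpi1 (4.42 and 2.44, log2 -0.86, -1.18 to -0.54) and Aldoa (7.68 and 4.90, log2 -0.65, -0.88 to -0.42) were lower, the hexokinases Hk1 (0.471 and 0.905, log2 0.94, 0.10 to 1.85) and Hk2 (0.477 and 0.952, log2 1.0, 0.27 to 1.76) higher, and Gapdh was at 22.5 and 17.1 (-0.39, -0.52 to -0.27). Hif1a, the hypoxia factor, was at 4.56 and 7.78 (0.77, 0.52 to 1.03) and higher in all 4 subsets. Of 19 dissociation and stress genes 4 were at least 1.5-fold higher and 2 lower (0.21), beside 29.6% and 7.17% of all genes (0.25). The chaperones Hsph1 (0.589 and 2.37, log2 2.01, 1.42 to 2.64), Dnajb1 (0.903 and 2.81, log2 1.64, 1.09 to 2.21) and Hsp90aa1 (5.69 and 10.2, log2 0.85, 0.63 to 1.06) were among the higher ones. Other chaperones of the list were within 1.5-fold: Hspa1a (9.30 and 6.90, log2 -0.43, -0.67 to -0.20), Hspa8 (18.6 and 16.5, log2 -0.17, -0.31 to -0.04), Hspa1b (8.69 and 8.45, log2 -0.04, -0.26 to 0.18) and Hspe1 (3.47 and 4.46, log2 0.36, 0.07 to 0.66). Of 13 mitochondrially encoded genes 4 were at least 1.5-fold higher and 0 lower (0.26), close to the 29.6% and median of 0.25 of all genes. Among them mt-Nd6, a complex I subunit, was at 0.451 and 2.05 (2.18, 1.47 to 2.95), with 2.21 in all other cells. The part of RNA quality in these values was not tested.

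The scale decides some calls. Relative to the median gene, Nr4a1, Tgfb1, Icos, Maf, Havcr2, Ccnd2 and Hif1a were no longer 1.5-fold higher, and Egr1, Tnf, Gata3, Pdcd1, Ube2c, Gapdh, Fos and Hspa1a became 1.5-fold lower (-0.61 to -0.83). On that scale, on which 17.4% of all genes were higher and 15.1% lower, the receptor response had 8 of 14 genes higher and 1 lower, helper cytokines 4 of 7 and 1, regulatory genes 5 of 10 and 0, and costimulators and ligands 3 of 12 and 0. Trafficking genes had 5 of 15 higher and 4 lower, inhibitory genes 3 of 11 and 1, and type 2 and 17 genes 3 of 6 and 2. More were lower than higher among interferon genes (7 and 2 of 23), cytokine receptor and SOCS genes (5 and 2 of 15), cytotoxic genes (5 and 2 of 13), naive and memory genes (5 and 1 of 12) and glycolysis and hypoxia genes (5 and 2 of 16).

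Outside the lists, the 10 highest ratios among genes with at least 30 UMIs and 1 direction in both Mki67 classes were those of Car2, Mir155hg, Lgals7, Xpo1, Parp8, Ntrk3, Sbf1, Clic4, Tsix and Itpripl2. Mir155hg, the host transcript of a microRNA induced on T cell activation, was at 0.148 and 1.76 (3.57, 2.59 to 4.73), with 10 and 107 UMIs in 5 of 90 and 26 of 39 cells. Vehicle was at 0.565 and anti-PD-1 at 0.438, both below the combination, and the ratio was 3.22 in Mki67-negative, 6.14 in Mki67-positive and 1.61 in all other cells. The ratios of the Mki67 classes divide the 10 ATT-I UMIs between them, with 17 ATT-I cells in the positive class, and their difference was not tested. Lgals7, galectin-7, was at 0.146 and 1.62 (3.47, 2.41 to 4.75), with 0.41 in cells under 10000 UMIs. Xpo1, the nuclear export receptor, was at 0.0868 and 0.736 (3.09, 1.89 to 4.49), and Ntrk3, a neurotrophin receptor, at 0.169 and 1.08 (2.68, 1.66 to 3.86). Car2, a carbonic anhydrase, was at 0.0383 and 0.640 (4.06, 3.11 to 5.06), with 59.7% of the combination level from 1 cell. The cell with epithelial markers held 17 of its 18 ATT-I UMIs, and without it the ratio rested on 1 ATT-I UMI, at 6.93 (4.32 to 12.29) in all members and 3.31 in place of 0.52 in Mki67-positive cells.

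Tsix was at 0.502 and 2.91 (2.54, 1.93 to 3.19), beside 2.88 in vehicle, 0.187 under anti-PD-1 and a ratio of 3.09 in all other cells. It overlaps Xist on the opposite strand, and the strand setting of the counting is not given in the sources used here, so reads of the 2 genes cannot be told apart. Parp8, Sbf1, Clic4 and Itpripl2 had log2 ratios of 2.51 to 2.74, and these, Mir155hg, Xpo1, Ntrk3 and Tsix were higher in all 4 subsets. Their choice had already required a large ratio and 1 direction in both Mki67 classes, so part of this was fixed in advance.

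The 10 lowest were Igfbp4, Hist4h4, Nelfe, Timm50, Rhob, Ndrg3, Lsm7, Cbr1, Cd81 and Ctps2. Igfbp4, a binding protein of insulin-like growth factors, had 57 UMIs in 19 of 90 ATT-I cells (level 1.14) and 0 in 39 combination cells. It was at least 16.8-fold lower against a floor of 3 UMIs over the combination cells, and 1 ATT-I cell gave 48.1% of its level. Cd81, a tetraspanin, was at 0.996 and 0.337 (-1.56, -2.64 to -0.62), and Rhob, a small GTPase, at 0.899 and 0.298 (-1.6, -2.66 to -0.64). The other 7 lay between -1.81 and -1.49 on 8 to 30 combination UMIs each. Igfbp4, Timm50 and Rhob were lower in all 4 subsets, which their choice likewise fixed in part. Without the cell with epithelial markers Cbr1 moved from -0.60 to 0.15 in Mki67-positive cells.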

How the data were processed

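The deposited table holds natural log values for 13518 genes in 13213 cells. Per the submitters' processing notes the authors used Cell Ranger, Seurat and build mm10; versions and cell filters are not given in the sources used here. From the values, each deposited number is the natural log of 1 plus UMIs per 10000 less a constant per library (0.153 for ATT-I, 0.225 for the combination), with results under 0 set to 0. Undoing this gave whole UMIs within 0.02 for 100% of non-zero values. Values of 1 UMI were lost in 37 of 199 cells of the combination library, of which 2 were members, and in 0 of 297 cells of the ATT-I library. In those cells 1 UMI of Cd4, Foxp3 or Mki67 reads as 0. Median depth of all cells was 6828 UMIs in ATT-I and 23927 in the combination.

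Levels are means over cells of UMIs per 10000, with 95% counting intervals. A library without a UMI took a floor of 3 UMIs over its members. No test was run, with 1 library per arm, and no doublet caller. Every list member could be named; outside the lists, leaving out mitochondrial, ribosomal protein, haemoglobin and antigen receptor genes, the rule took the 10 highest and 10 lowest ratios with at least 30 UMIs and 1 direction in both Mki67 classes and in summed counts. The cells, lists and named genes were chosen with earlier results of these data known. Shares have exact Clopper-Pearson intervals; thinned shares are hypergeometric expectations. Python 3.11.15, numpy 2.4.6, scipy 1.17.1 and pandas 2.3.3 were used, and the calculations were tested on simulated data. Promoter windows are from RefSeq. Results for some genes are not reported here.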

Additional observations from a re-analysis of the deposited data

Results flagged for a closer look

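Lists of genes had medians on opposite sides of 0 in 2 classes of the same cells, and none of these differences was tested. Between cells under and cells of at least 10000 UMIs, the median log2 ratio of the combination over ATT-I was -0.83 and 0.59 for naive and memory genes, -0.37 and 0.81 for T helper 1 genes, -0.70 and 0.87 for cytotoxic genes and chemokines, 0.57 and -0.90 for proliferation genes and -0.34 and 1.48 for interferon-stimulated genes. Between Mki67-negative and Mki67-positive cells it was -0.44 and 1.76 for cytotoxic genes and chemokines. Lists with 1 median or both nearer to 0 were also on opposite sides: by Mki67, naive and memory genes (-0.54 and 0.26), proliferation (0.31 and -0.25), histones (-0.90 and 0.09), the proteasome (0.29 and -0.19) and interferon-stimulated genes (0.05 and -0.16), and by depth the proteasome (0.16 and -0.35), cytokine receptor and SOCS genes (-0.0082 and 1.09) and T cell identity genes (-0.02 and 0.29). The shallow class held 75 ATT-I and 14 combination cells and the deep class 15 and 25.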

How the results depend on the processing

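A set of 112 named genes was followed over 21 alternatives. Of the 80 of them past 1.5-fold, 70 kept their direction under each alternative that gave a value. Part of this count was fixed by the choice of genes. Those outside the lists had to keep 1 direction in both Mki67 classes and in summed counts, which are among the 21. The count of genes 1.5-fold higher, 1266, became 2941 with a UMI required in 10% of cells, 3275 with no filter, 743 relative to the median gene, 782 without the library constant, 512 at 2-fold and 1957 at the smaller fold tried. The count lower, 307, became 914, 1451, 644, 722, 83 and 659 in that order, 538 with ribosomal protein, mitochondrial and histone genes out of the totals, 510 in Mki67-negative, 558 in Mki67-positive, 721 in shallow, 533 in deep, 736 in Mki67-negative shallow and 616 in Mki67-positive deep cells. The share of CD4 conventional cells moved to 16.9% in deep and 36.1% in shallow ATT-I cells, 19.9% with Cd3e and 2 Cd4 UMIs required and 36.4% with Foxp3-positive cells, and in the combination to 53.8% in shallow cells and 32.7% with Foxp3-positive cells. The Mki67-positive share was 80.0% and 6.67% in deep and shallow ATT-I cells and 64.0% and 14.3% in those of the combination. The proliferation median turned to -0.25 in Mki67-positive cells, -0.90 in deep cells, -0.39 in both together, -1.05 in cells of 5000 to 20000 UMIs and -0.15 with equal weight to the Mki67 classes. In Mki67-positive cells Nr4a1 turned to -0.45, Icos to -0.024, S1pr1 to 0.31 and Ccl4 to 3.14. In deep cells S1pr1 was at 0.87, Ccl4 at 3.15, Ccl5 at 0.31, Top2a at -0.40, Ifit3 at 3.09 and Ctps2 at 0.66, and in Mki67-positive deep cells these 6 were at 1.01, 3.58, 1.27, -0.11, 1.86 and 1.15. Gzmb was at -1.54 in shallow, -1.37 in Mki67-negative shallow and -0.82 in mid-depth cells, where Top2a was at -0.066. Ccl4 was at 1.13 with Foxp3-positive cells, and Gzma at 0.0092 with Cd3e and 2 Cd4 UMIs required. The causes of these changes were not tested. Cells without an Ikzf2, Ccr8 or Il2ra UMI were not compared, since 38 ATT-I and 1 combination cell remained. The mid-depth, combined Mki67 and depth, equal-weight, lost-UMI and epithelial-cell alternatives were chosen after seeing the data. No paired analysis was possible because each arm is 1 library.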
